A study of Mus musculus with 8 samples.

Results

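Transcripts of 32 genes that mark the supporting tissue of the islet were followed in pancreatic islets of AKR/J mice and of C57Bl/6J mice: 8 genes of pericytes, and 24 genes of fibroblasts and of the extracellular matrix. The members were every probe set whose platform annotation names one of these genes. A probe set is a group of short probes that together measure a transcript, and each gene was represented by the probe set with the highest mean log2 intensity over the arrays. Of the 32 genes, 31 had a probe set (65 probe sets in all), and all 31 had at least 1 that passed the detection filter, out of 10891 genes tested. Fbn1 was not analysed here. Both strains are inbred and both had been on a high-fat diet for 3 months; every RNA sample pooled the islets of 2 mice, and each strain gave 4 samples, run on arrays 1 to 4 (AKR/J) and arrays 5 to 8 (C57Bl/6J). The labels give no sex or age and no group on another diet, so the strains are compared with each other on that diet alone, and p-values measure the spread between these pools.

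Islets are clusters of hormone cells threaded by capillaries. Pericytes are contractile cells wrapped around those capillaries, held there by platelet-derived growth factor (PDGF) from the endothelium acting on the receptor PDGFRB, and by Notch signalling from the neighbouring endothelial cells. Under the endothelium lies a basement membrane of collagen IV, laminins, nidogen and perlecan, while fibroblasts, marked by the related receptor PDGFRA, make the fibrillar collagens and small proteoglycans of the looser tissue around the islet. Islets freed from the pancreas carry some of these cells along. In bulk RNA, fewer cells of a type and less RNA per cell cannot be told apart.

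The share of probe sets detected on an array ran from 43.7% to 48.1%. Pairs of arrays correlated at r = 0.985 to 0.993 within a strain and at 0.966 to 0.975 between strains. The 5 islet hormone genes measured were detected on all 8 arrays. For Gapdh, the 3' control probe set over the 5' one, as a log2 ratio, averaged -0.386 (SD 0.0317) on AKR/J arrays and -0.229 (SD 0.112) on C57Bl/6J arrays (n = 4 each; two-sided exact permutation p = 0.0286, the smallest this design allows, 0.0858 adjusted over 3 measures), and its part in the results below was not tested. C57Bl/6J array 8 stood apart in contractile genes, described below; the counts of members are also given without it, and those of other lists where they change.

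The sequence just before the start of 4 members is shown first. Rgs5, Notch3 and Postn were among the genes higher in AKR/J, and Acta2 was among the genes high on array 8. The sequence is that of the reference genome and was not compared between the strains, and its part in the results was not tested. Each run is the 250 bases before the gene's annotated start in RefSeq (GRCm38.p6), 5′ to 3′ on the gene's strand, in lower case. Capitals mark the reverse complement of a CCAAT box in Rgs5. In Notch3 they mark the GC box GGGCGG on either strand. Capitals in Postn mark TATAAA. In Acta2 they mark CArG boxes, the element that serum response factor binds in contractile genes. Rgs5 lies on chr1:169655251-169655500 (+ strand), Notch3 on chr17:32166891-32167140 (- strand), Postn on chr3:54360857-54361106 (+ strand, the downstream of its 2 annotated starts) and Acta2 on chr19:34255374-34255623 (- strand).
Rgs5: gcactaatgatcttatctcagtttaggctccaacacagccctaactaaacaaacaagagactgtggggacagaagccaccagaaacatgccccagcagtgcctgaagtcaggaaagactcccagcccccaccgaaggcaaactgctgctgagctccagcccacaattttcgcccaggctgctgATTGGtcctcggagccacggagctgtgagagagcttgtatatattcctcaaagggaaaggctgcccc
Notch3: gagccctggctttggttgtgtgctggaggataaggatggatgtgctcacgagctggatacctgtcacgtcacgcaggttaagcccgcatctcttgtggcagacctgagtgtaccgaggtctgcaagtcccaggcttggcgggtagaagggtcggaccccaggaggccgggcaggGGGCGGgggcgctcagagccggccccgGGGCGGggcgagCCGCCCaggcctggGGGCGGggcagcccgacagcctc
Postn: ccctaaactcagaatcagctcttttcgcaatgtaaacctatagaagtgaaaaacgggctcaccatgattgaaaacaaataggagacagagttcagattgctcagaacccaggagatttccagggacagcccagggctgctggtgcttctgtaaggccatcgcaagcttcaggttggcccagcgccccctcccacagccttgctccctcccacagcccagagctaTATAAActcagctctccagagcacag
Acta2: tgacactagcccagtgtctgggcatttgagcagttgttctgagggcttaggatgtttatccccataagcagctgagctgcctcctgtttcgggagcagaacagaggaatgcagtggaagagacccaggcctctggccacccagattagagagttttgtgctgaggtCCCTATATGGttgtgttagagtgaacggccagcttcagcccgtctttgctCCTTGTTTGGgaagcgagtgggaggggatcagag

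RefSeq windows were found for 20 of the 31 members. Over all 32851 windows of this length, on both strands, 33.8% held CCAAT, 32.7% held GGGCGG, 12.4% held TATAAA and 8.59% held a CArG box, taken here with at most 1 of its 6 inner bases other than A or T. Among the 20 member genes, CCAAT was found in 6, GGGCGG in 11, TATAAA in 2 (Col3a1 and Postn) and a CArG box in 2 (Acta2 and Col1a2). Notch3 held 4 GC boxes, whereas Postn had its TATAAA at 26 bases before the start and Acta2 had 2 CArG boxes, which begin 84 and 34 bases before it. The motif GTGGGAA, bound by the Notch effector RBPJ, was found in the window of 1 member, Hspg2, against 5.42% of all windows. These matches describe letters in a window and were not measured as binding.

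Among the pericyte members, 4 of 8 rose in AKR/J over C57Bl/6J and 0 fell, at an adjusted p under 0.05 in limma's fit over all probe sets. Of all genes tested, 7.79% were called in the first direction and 8.53% in the second. The 4 were Rgs5, Higd1b, Ndufa4l2 and Notch3, by 1.97-fold to 3.69-fold, and for each of them the 4 AKR/J arrays lay above the 4 C57Bl/6J arrays, which held in that direction for 13.4% of all genes. The other 4, Pdgfrb, Cspg4, Abcc9 and Kcnj8, did not pass. The median log2 difference (AKR/J minus C57Bl/6J) over the 8 was 0.66, against 0 over all 10891 genes. Both counts stood with each array left out in turn, array 8 included. Without probe sets suffixed _x_at or _s_at, the median was 0.36 with 3 called, and within arrays 3, 4, 7 and 8 alone 1 was called (Rgs5). Ndufa4l2, detected on 4 AKR/J and 2 C57Bl/6J arrays, met the detection filter through the strain where it was higher, so its call carries less weight. Of the 5 pericyte members detected on all 8 arrays, 3 were called (Rgs5, Higd1b and Notch3), with a median of 0.98.

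Rgs5 encodes a regulator of G protein signalling that is abundant in pericytes and dampens the response of vessels to constricting signals. Its log2 intensity was 12.27, 12.17, 12.20 and 12.28 on the AKR/J arrays and 10.64, 10.84, 10.94 and 10.84 on the C57Bl/6J arrays. The strains were far apart and varied little within. The AKR/J mean was 12.23 ± 0.05 and the C57Bl/6J mean 10.81 ± 0.12 (SD, n = 4 each), a 2.67-fold excess (log2 difference 1.42, SE 0.08, limma adjusted p = 2.21e-05). All 4 Rgs5 probe sets were called in the same direction, with log2 differences from 1.42 to 1.5.

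Higd1b, a hypoxia-inducible domain family gene used as a pericyte marker, had the largest difference of the pericyte members. It measured 6.71, 6.62, 6.29 and 6.15 in AKR/J and 4.52, 4.45, 5.01 and 4.25 in C57Bl/6J. All AKR/J arrays lay well above the highest C57Bl/6J array. The difference was 1.88 on the log2 scale, or 3.69-fold (SE 0.19, adjusted p = 0.000505), and 1.26 with the MAS5-type signals, a second set of values from the same arrays.

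Ndufa4l2 encodes a mitochondrial protein related to a subunit of the respiratory chain and induced by low oxygen. Its log2 intensity was 4.15, 3.99, 4.10 and 3.69 in AKR/J and 2.95, 2.56, 2.78 and 2.94 in C57Bl/6J, where it was detected on 2 of 4 arrays. All AKR/J values were higher, but the gene was dim in both strains, so the 2.26-fold difference (adjusted p = 0.000858) rests partly on signals near background.

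Notch3 is the Notch receptor of mural cells, the pericytes and smooth muscle of vessels. It stood at 8.37, 7.97, 8.55 and 8.51 in AKR/J and 7.37, 7.21, 7.08 and 7.83 in C57Bl/6J. The highest C57Bl/6J array, array 8, came close to the lowest AKR/J array without reaching it. The difference was 0.98 (1.97-fold, SE 0.19, adjusted p = 0.0117). A dimmer second probe set gave 0.38 (adjusted p = 0.113), so the size for Notch3 depended on the probe set; over all alternatives the adjusted p of the gene ran from 0.00543 to 0.176.

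The pericyte members that did not pass include the defining PDGF receptor and both subunits of a potassium channel. Pdgfrb was at 7.94, 8.10, 8.66 and 8.61 in AKR/J and 7.98, 7.73, 8.24 and 7.98 in C57Bl/6J, overlapping ranges with a log2 difference of 0.35 (95% interval -0.09 to 0.78, adjusted p = 0.258). It passed with the MAS5-type signals alone (0.65, adjusted p = 0.0347, in a range of 0.0347 to 0.485 over its alternatives). A dimmer second Pdgfrb probe set was detected on 0 arrays and not tested. It averaged 5.84 in AKR/J and 5.2 in C57Bl/6J, without overlap. Cspg4, the NG2 proteoglycan on the pericyte surface, differed by 0.21 (-0.05 to 0.47). Abcc9 and Kcnj8 encode the sulphonylurea receptor SUR2 and the pore Kir6.1 of the ATP-sensitive potassium channel of pericytes. Abcc9 differed by 0.04 (-0.26 to 0.35) and Kcnj8 by -0.27 (-0.70 to 0.16). Kcnj8, detected on 2 of 4 AKR/J arrays, and Cspg4 lay near background, which limits their differences. Called and uncalled members were split by this same fit, and the differences between genes were not tested.

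**Figure D1:**
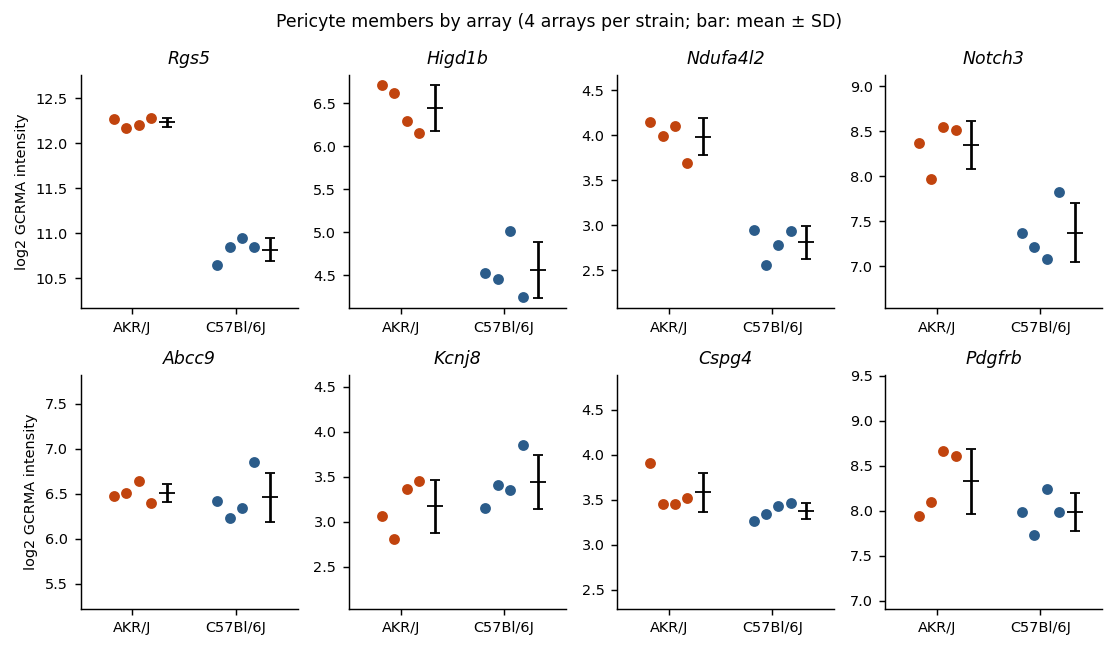
Each panel plots the log2 GCRMA intensity of 1 pericyte member on the 4 AKR/J arrays and the 4 C57Bl/6J arrays, with the mean and SD as a bar. In the upper row (Rgs5, Higd1b, Ndufa4l2, Notch3) the strains do not overlap, and in the lower row (Abcc9, Kcnj8, Cspg4, Pdgfrb) they do.

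Of 23 fibroblast and matrix members measured, 4 rose in AKR/J over C57Bl/6J, 3 fell and 16 missed the threshold, with 12 differences above 0 and 11 below. The genes higher in AKR/J were Sparcl1, Postn, Sparc and Col4a2; those higher in C57Bl/6J were Pdgfra, Dcn and Nid1. The median log2 difference was 0.01, beside 0 for all genes. The 4 and the 3 were also the members whose strains did not overlap, in directions that 13.4% and 11.7% of all genes showed. Without array 8 the counts were 3 and 2: Col4a2 (adjusted p = 0.0755), Nid1 (0.0536) and Dcn (0.0577) no longer passed, while Col6a1 did. The count in the C57Bl/6J direction was 1 without array 2 and 1 without array 5.

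Sparcl1 (hevin) and Sparc (osteonectin) are related secreted proteins that bind collagen and tune how cells attach to the matrix. Sparcl1 measured 11.80, 11.57, 11.72 and 11.55 in AKR/J and 9.63, 9.64, 9.71 and 10.13 in C57Bl/6J. The groups were far apart, with array 8 the highest of the lower group. The difference was 1.88, or 3.68-fold (SE 0.13, adjusted p = 6.48e-05), and 2 without array 8. Sparc was at 10.37, 10.19, 10.20 and 10.21 in AKR/J and 9.58, 9.48, 9.41 and 9.78 in C57Bl/6J, an AKR/J excess of 1.6-fold (log2 difference 0.68, adjusted p = 0.00262). Both tested Sparc probe sets were called, at 0.68 and 0.49.

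Postn encodes periostin, a matrix protein made by activated fibroblasts and mural cells that takes part in collagen assembly. Its values were 8.25, 7.67, 7.86 and 8.18 in AKR/J against 6.69, 6.80, 6.50 and 6.57 in C57Bl/6J, with no overlap. The AKR/J mean was 2.55-fold higher (log2 difference 1.35, SE 0.14, adjusted p = 0.000662), and 1.25 on the log2 scale with the MAS5-type signals.

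In the basement membrane, the collagen IV chains among the members, Col4a1 and Col4a2, lay above 0 and nidogen 1 below. Col4a1 and Col4a2 encode the chains of the main collagen IV network. They are transcribed in opposite directions, with annotated starts 21 bases apart on chromosome 8 (GRCm38.p6). The starts are at 11312826 (Col4a1, - strand) and 11312805 (Col4a2, + strand), so each transcript runs across the other's start. Their 300-base RefSeq windows, which include 50 bases after the start, share 78 bases. Col4a2 measured 9.52, 9.25, 9.39 and 9.13 in AKR/J and 8.99, 8.74, 9.02 and 8.75 in C57Bl/6J (1.36-fold, adjusted p = 0.033). Every AKR/J value was above every C57Bl/6J value, the nearest pair narrowly. Col4a1 measured 11.18, 10.93, 10.84 and 10.59 in AKR/J and 10.66, 10.73, 10.31 and 10.39 in C57Bl/6J, overlapping through array 4 of AKR/J, and did not pass (log2 difference 0.36, 95% interval 0.03 to 0.70, adjusted p = 0.135). With the array set as a covariate, the grouping of arrays described in the methods, Col4a1 passed at 0.0275, within a range of 0.0275 to 0.274 over its alternatives.

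Nid1 encodes nidogen 1, which links the laminin and collagen IV networks. It was at 6.50, 6.76, 7.04 and 7.08 in AKR/J and 7.57, 7.25, 7.65 and 7.41 in C57Bl/6J. The C57Bl/6J arrays were all higher, with a 1.54-fold difference (log2 difference -0.62, adjusted p = 0.0277). The laminin chains did not pass: Lama4 differed by 0.56 (0.04 to 1.08), Lamb1 by 0.24 and Lamc1 by 0.01 (its AKR/J arrays all read 5.63). Lama4 was the dimmer of its probe sets, as its brighter one was detected on 0 arrays and did not enter the test. Perlecan (Hspg2), the heparan sulphate proteoglycan of this layer, differed by 0.08 (-0.20 to 0.35), again by a dimmer probe set, since the brighter was detected on 2 arrays.

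Pdgfra, which encodes the PDGF receptor that marks fibroblasts, was higher in C57Bl/6J. It was at 4.90, 4.33, 4.83 and 5.01 in AKR/J and 6.11, 6.24, 6.22 and 5.74 in C57Bl/6J. All C57Bl/6J arrays were above all AKR/J arrays, by 2.48-fold in the mean (log2 difference -1.31, SE 0.17, adjusted p = 0.00207), from the only 1 of its 3 probe sets that was tested. Dcn encodes decorin, a small leucine-rich proteoglycan that coats collagen fibrils. It measured 10.11, 9.24, 9.32 and 9.86 in AKR/J and 10.45, 10.74, 10.31 and 10.41 in C57Bl/6J, 1.80-fold higher in C57Bl/6J (log2 difference -0.85, adjusted p = 0.0293). The AKR/J arrays spread more widely, and the highest of them was just under the lowest C57Bl/6J array. Lumican (Lum, -0.30, 95% interval -0.69 to 0.09) and biglycan (Bgn, -0.16, -0.45 to 0.14), of the same proteoglycan family, did not pass.

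The fibrillar collagens did not pass. Col1a1 and Col1a2 (the collagen I chains) differed by -0.52 (-1.10 to 0.06) and -0.11 (-0.55 to 0.34), Col3a1 by -0.09 (-0.42 to 0.24) and Col5a1 by -0.03 (-0.27 to 0.20). Among the collagen VI chains, which form beaded filaments around cells, Col6a1 differed by -0.47 (-0.88 to -0.06, adjusted p = 0.122) and Col6a2 by -0.15 (-0.39 to 0.08). Col6a1 passed without array 8 (-0.62, adjusted p = 0.0362) and with the MAS5-type signals (-0.50, 0.0396), within a range of 0.0362 to 0.511. Fibronectin (Fn1) differed by 0.14 (-0.36 to 0.65).

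The 11 called members stand beside 16.3% of all genes called in either direction. Of the 11, 8 kept their call when each array was left out in turn, and Col4a2, Dcn and Nid1 did not. Col4a2 lost it without array 1, 2, 3, 5, 6 or 8 (adjusted p up to 0.0822), Dcn without array 2, 3, 5, 6 or 8 (up to 0.0775) and Nid1 without array 1, 2, 5, 7 or 8 (up to 0.075). All 11 kept their direction and all were called with the MAS5-type signals. For 8 of the 11 (Higd1b, Ndufa4l2, Col4a2, Nid1, Dcn, Sparcl1, Pdgfra and Postn) only 1 probe set was tested, so that a strain difference in the sequence under the probes and a difference in transcript level cannot be told apart.

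**Figure D2:**
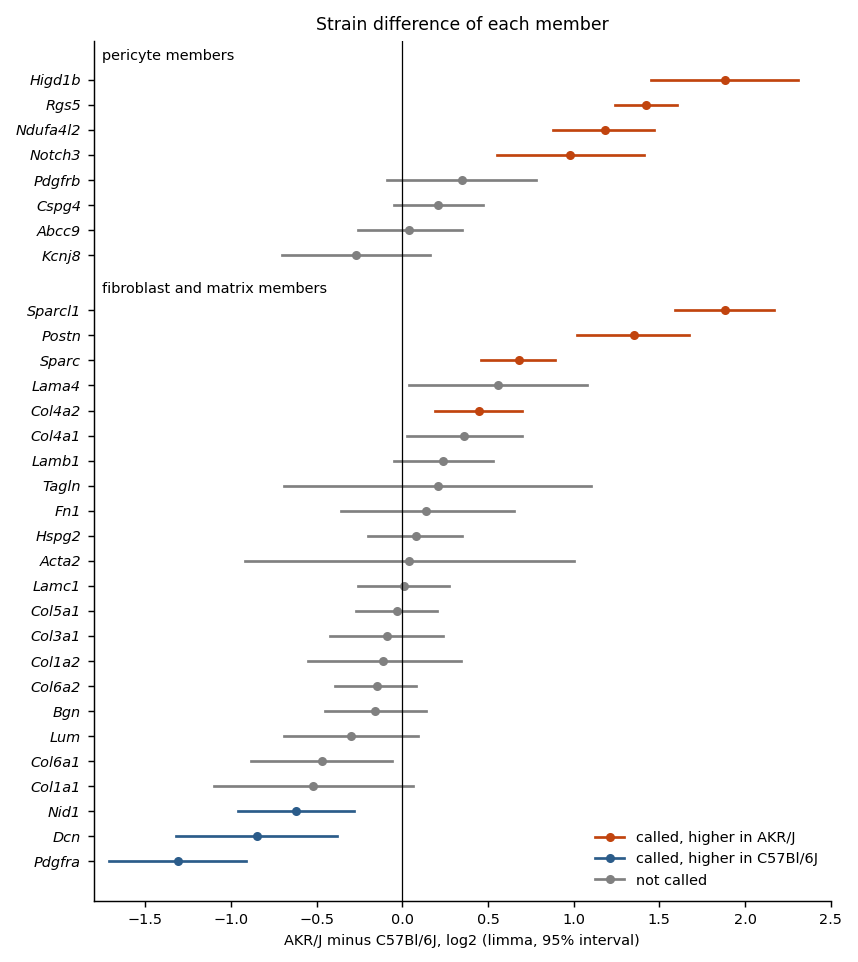
Log2 difference (AKR/J minus C57Bl/6J) of each of the 31 measured members with its 95% interval from limma, coloured by call. The called members range from Pdgfra at -1.31 to Higd1b and Sparcl1 at 1.88, and 16 of 23 fibroblast and matrix members are not called.

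The contractile members did not differ between strains beyond the spread of the C57Bl/6J arrays. Acta2 encodes smooth muscle actin and Tagln the actin-binding protein transgelin, both made by smooth muscle, contractile pericytes and myofibroblasts. Acta2 was at 10.02, 9.46, 9.63 and 9.93 in AKR/J and 9.76, 9.21, 8.91 and 11 in C57Bl/6J. Array 8 was thus the highest of all and array 7 the lowest. Tagln followed the same order at the ends, at 8.31, 7.95, 8.08 and 8.49 in AKR/J and 8.03, 7.54, 7.24 and 9.20 in C57Bl/6J. The strain differences were 0.04 (-0.92 to 1) and 0.21 (-0.69 to 1.10), the widest intervals among the members.

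Other smooth muscle genes showed the same array. Of 9 contractile genes tested, Acta2 and Tagln included, array 8 was the highest C57Bl/6J array for 9 and the highest of all 8 arrays for 8. Myh11, the smooth muscle myosin heavy chain, named after its values were seen, measured 7.5, 6.98, 7.31 and 7.59 in AKR/J and 7.07, 6.57, 6.48 and 8.14 in C57Bl/6J. The smooth muscle markers other than these members averaged 0.71 above their mean of 8 arrays on array 8, and -0.57 to -0.09 on the other three C57Bl/6J arrays. Without array 8, Acta2 differed by 0.47 (adjusted p = 0.228) and Tagln by 0.61 (adjusted p = 0.115), still not called, while Myl9, a myosin light chain gene of the smooth muscle list, then passed (adjusted p = 0.043). For Cald1 (caldesmon), the gene in which array 8 was not the highest of all, every AKR/J array was above every C57Bl/6J array (log2 difference 1.05, adjusted p = 0.00552). Desmin (Des) and calponin (Cnn1) were below the detection minimum.

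**Figure D3:**
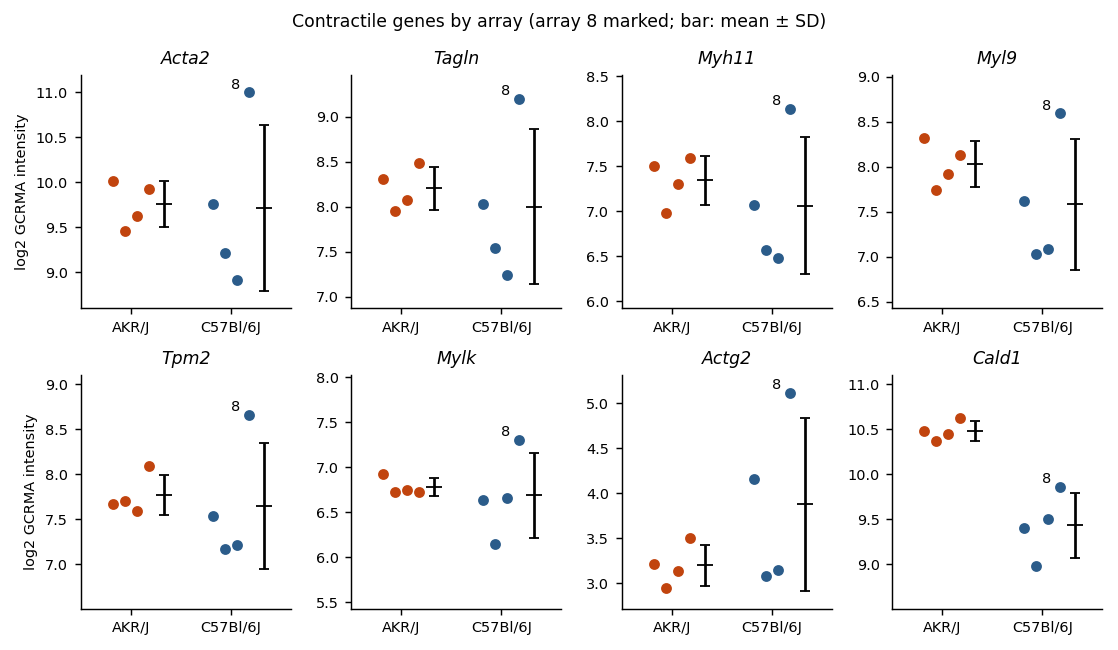
Log2 GCRMA intensity of 8 contractile genes on each array, by strain, with the mean and SD as a bar and array 8 marked. Array 8 is the highest C57Bl/6J array in every panel, and Cald1 is the only one of the 8 in which the strains do not overlap.

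**Figure D4:**
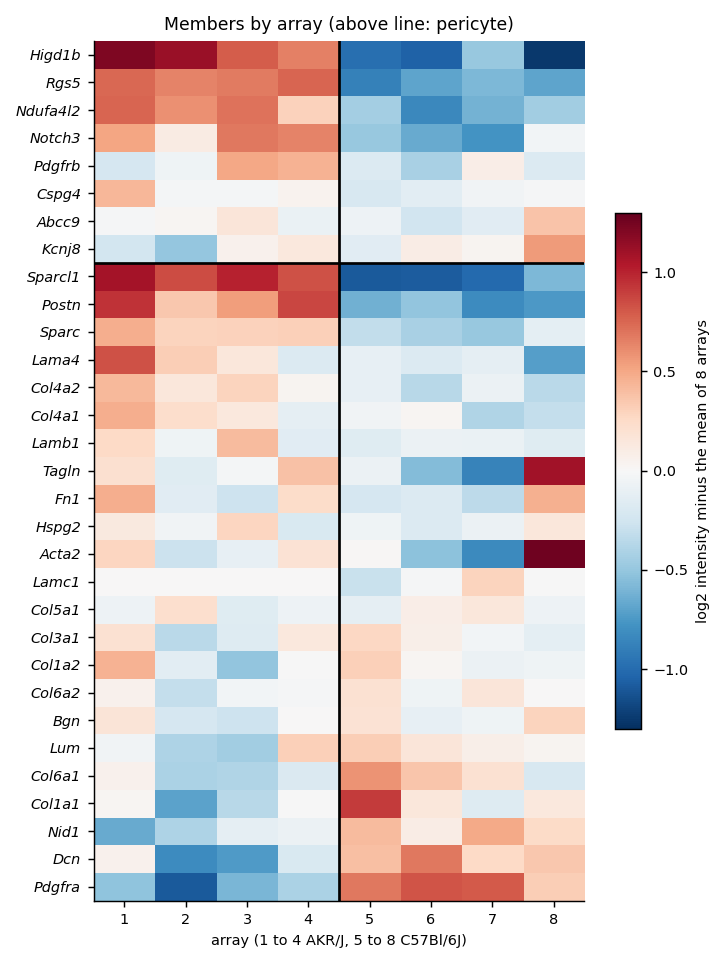
Log2 intensity of each measured member minus its mean over the 8 arrays, with arrays 1 to 4 from AKR/J and 5 to 8 from C57Bl/6J. Rgs5, Higd1b, Ndufa4l2, Sparcl1 and Postn divide by strain, Pdgfra divides the other way, and Acta2 and Tagln are high on array 8.

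As a whole, the pericyte members lay at 0.36 ± 0.09 on the AKR/J arrays and -0.36 ± 0.12 on the C57Bl/6J arrays, relative to their mean over all 8 (SD, n = 4 each, by the brightest probe set of each gene), with arrays from 0.24 to 0.45 and from -0.49 to -0.21. The fibroblast and matrix members averaged 0.03 ± 0.15 and -0.03 ± 0.09, and their arrays overlapped, from -0.14 to 0.21 in AKR/J and from -0.14 to 0.06 in C57Bl/6J. These averages summarise genes that moved in different directions and carry no test.

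Genes that signal between endothelium and pericytes were read beside the members. Of 11 tested, 3 rose in AKR/J, 1 fell and 7 missed the threshold (median -0.01). Those higher in AKR/J were the Notch ligand gene Jag1 (0.52 on the log2 scale, adjusted p = 0.0433), the Notch target gene Heyl (1.07, 0.0313) and the angiopoietin receptor gene Tek (0.51, 0.0218). Notch1 (-0.15) and the ligand gene Dll4 (0.09), named after their values were seen, did not pass. On the PDGF side, Pdgfb, the ligand that recruits pericytes, also outside the naming rule, differed by -0.28 (adjusted p = 0.193). Pdgfd, a second ligand of PDGFRB, fell in AKR/J (-1.18, adjusted p = 0.0155), where 2 of 4 arrays detected it. With the MAS5-type signals Jag1 (0.0752) and Tek (0.159) did not pass. The counts of this list and the lists below stand beside 7.79% of all genes called higher in AKR/J and 8.53% in C57Bl/6J.

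Other basement membrane genes were called in the direction of Col4a2. Of 8 tested, 3 rose in AKR/J and 0 fell (median 0.18): Col15a1 (0.61, adjusted p = 0.034), Nid2 (0.53, 0.021), which encodes nidogen 2, and Agrn (0.53, 0.0425), which encodes agrin. The paralogs Nid1 and Nid2 thus differed in opposite directions, by -0.62 and 0.53. Among other collagen IV chain genes, named outside the naming rule, Col4a3 differed by 0.26 (adjusted p = 0.262) and Col4a5 by -0.38 (0.274). With the MAS5-type signals these 3 did not pass (adjusted p = 0.157, 0.181 and 0.355). Without array 8, 1 of the 3 was called (Nid2), as Col15a1 (0.0594) and Agrn (0.0951) did not pass.

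Of 16 other interstitial matrix genes, 2 rose in AKR/J, 3 fell and 11 missed the threshold (median -0.28). Without array 8, 4 fell, as Col5a3, named outside the naming rule, then passed (-0.66, adjusted p = 0.047). The third collagen VI chain gene, Col6a3, was 3.99-fold higher in C57Bl/6J (mean log2 intensity 8.07 against 6.07, adjusted p = 0.00074). Its log2 difference was -2, and -1.47 with the MAS5-type signals, beside -0.47 and -0.15 for its partner chains among the members. Fmod (fibromodulin), among the 3 that fell, was detected on 0 AKR/J and 4 C57Bl/6J arrays. It entered the test only through the strain where it was higher, so its call carries no weight. Its log2 difference was -1.3, and -0.86 with the MAS5-type signals. Ogn, which encodes osteoglycin and falls outside the naming rule, was 2.22-fold higher in C57Bl/6J (adjusted p = 0.00537). Aspn (asporin) was 2.18-fold higher in AKR/J (adjusted p = 0.000861) and the elastic fibre gene Emilin1 1.64-fold (0.00485; 0.0688 with the MAS5-type signals). With Fmod set aside, the proteoglycan family held genes higher in C57Bl/6J (Dcn and Ogn) and 1 higher in AKR/J (Aspn). Others did not pass: Lum, Bgn and, outside the naming rule, Prelp (-0.31, adjusted p = 0.364).

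Of 11 genes that process and crosslink collagen, 10 lay above 0 (median 0.41), with 2 called above and 1 called below. Of all 10891 genes, 5447 lay above 0. P4ha2, a subunit of prolyl 4-hydroxylase, was 2.42-fold higher in AKR/J (adjusted p = 0.00495) and Crtap, a partner of prolyl 3-hydroxylase, 1.39-fold (0.0115). Pcolce, which enhances the cleavage of procollagen, was 1.78-fold higher in C57Bl/6J (0.0384). Several of these enzymes also serve proteins other than collagen and are made by many cell types. Among 8 matrix turnover genes, the gelatinase gene Mmp2 was called, higher in C57Bl/6J (-0.51, adjusted p = 0.0226, median of the list -0.01). Among 12 genes of the TGF-beta pathway, Tgfbi was called (-0.87, 0.0345, median 0.01), and did not pass without array 8 (0.0806). With the MAS5-type signals Pcolce (0.0557), Mmp2 (0.0838) and Tgfbi (0.184) did not pass.

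Matrix receptors held the largest single difference of these lists. Of 14 tested, 2 rose in AKR/J and 2 fell (median 0.1). Sdc4, the heparan sulphate proteoglycan syndecan 4, was 8.39-fold higher in AKR/J (adjusted p = 0.00176) and Sdc3 1.38-fold (0.0158). The log2 difference of Sdc4 was 3.07, but 2.03 with the MAS5-type signals, and its C57Bl/6J arrays ran from 4.79 to 6.78. The laminin-binding integrin gene Itga6 (-0.51, 0.0474) and the integrin gene Itgav (-0.28, 0.0499) were higher in C57Bl/6J, both close to the threshold. Itga6 was detected on 2 of 4 AKR/J arrays and 4 of 4 C57Bl/6J arrays, so it met the detection filter through the strain where it was higher. With the MAS5-type signals Sdc3 (0.144) and Itgav (0.246) did not pass, nor did Itga6 without array 8 (0.0535). Of 8 other mesenchymal markers, Meox1 was higher in AKR/J (0.65, 0.0176) and 7 missed the threshold.

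Markers of neighbouring cell types moved on the same arrays. Of 12 endothelial markers, 3 rose in AKR/J and 0 fell (median 0.32; Ramp2 0.73, Cdh5 0.69, Esam 0.32), and 11 lay above 0. With the MAS5-type signals 1 of the 12 was called, since Cdh5 (0.0603) and Esam (0.195) did not pass. Their summed intensity, on the log2 scale, ran from 12.49 to 12.71 over the AKR/J arrays and from 12.36 to 12.51 over the others, overlapping, while that of the pericyte members was 12.39 to 12.53 and 11.07 to 11.31. Rgs5 made up 73.9% to 86% of that pericyte sum on each array, so it mainly restates Rgs5. Sparc, Sparcl1 and the collagen IV genes are also made by endothelial cells. Of 9 acinar markers 9 were higher in C57Bl/6J (median -0.81), with summed intensity 16.67 to 16.85 against 17.42 to 17.47, and of 8 macrophage markers 5 were (median -0.59), with 9.96 to 10.36 against 10.54 to 10.80. With the MAS5-type signals 5 of 9 acinar and 4 of 8 macrophage markers were called in that direction, and without array 8 3 of 8 macrophage markers were. Of the 5 islet hormone genes, all 5 lay above 0. For 3 of them every AKR/J array was above every C57Bl/6J array, as for 13.4% of all genes. Ppy, which encodes pancreatic polypeptide, was called (0.89, 1.86-fold higher in AKR/J, adjusted p = 0.034), but not without array 8 (0.0804). The mesothelial marker Msln, the only 1 of its list above the detection minimum, averaged 6.1 on C57Bl/6J arrays against 4.08 (adjusted p = 0.00337), as Upk3b, Lrrn4, Wt1 and Krt14 were below it. Of the Schwann cell markers, 0 of 2 tested were called (median 0.15), and of 2 duct markers Tspan8 was (-1.54). The part of these cell types in the differences of the members was not tested.

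**Figure D5:**
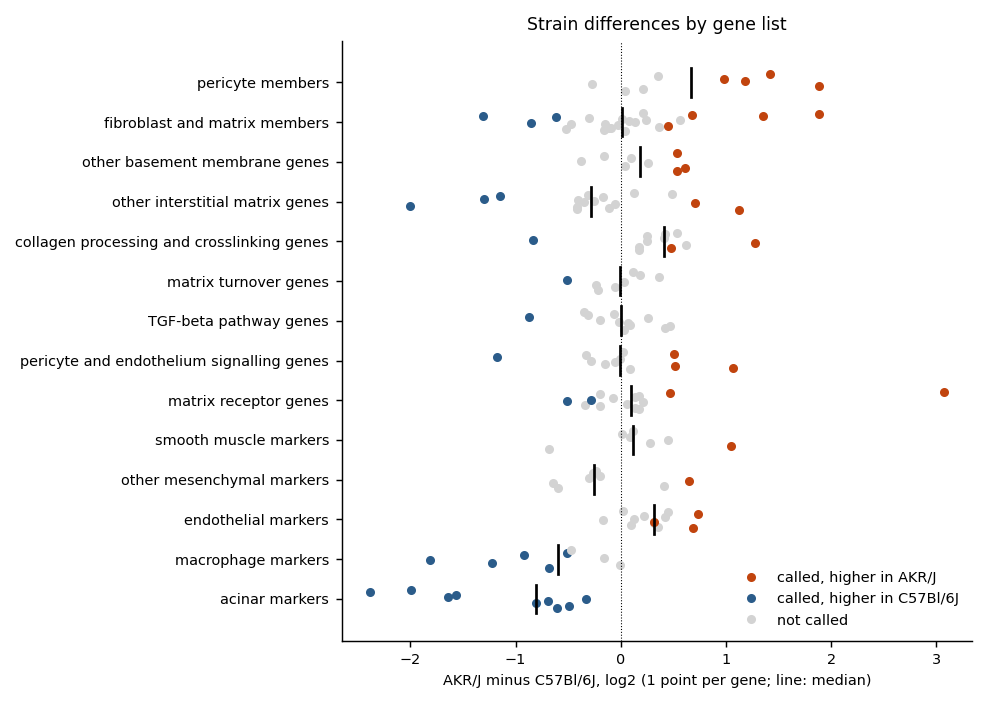
Log2 difference (AKR/J minus C57Bl/6J) of every tested gene, by list, with the median of each list as a line and points coloured by call. The pericyte median is 0.66 and the endothelial median 0.32, whereas the acinar median is -0.81 and the macrophage median -0.59.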

How the data were processed

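Total RNA of 8 pooled islet samples, 4 per strain, was measured on Affymetrix mouse expression arrays. The value table that the authors deposited holds GCRMA intensity values on a linear scale, per the submitters' processing notes (version not given in the sources used here); they were log2-transformed. The deposited per-array files hold, per the file headers, a MAS5-type intensity signal with its detection p-value.

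Of 45101 probe sets 64 were controls; 34945 name 1 gene symbol, 932 several and 9160 none in GEO's platform annotation, and the latter pair of classes was tested but not named. The 20772 probe sets with a detection p under 0.05 on at least 4 of 8 arrays were fitted for AKR/J minus C57Bl/6J with limma 3.58.1 (R 4.3.3; lmFit, eBayes), Benjamini-Hochberg adjusted over all of them, threshold 0.05. Lists were counted, not tested. Figures used matplotlib 3.10.9 (Python 3.11.15). The fit was tested on simulated data.

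The members, gene lists and tests were chosen with earlier results of these data known. Named genes are all members, and up to 4 called genes of each other list, smallest p first; the 2 brightest where none was called. Genes named outside this rule are said to be so. The context lists' counts with MAS5-type signals and without array 8 were added after seeing the data. The array sets (arrays 1, 2, 5, 6 and arrays 3, 4, 7, 8) are a grouping from those earlier results, not from the labels. The number of arrays limits the precision. Other alternatives were the detection filter, MAS5-type signals (values under the 5th percentile raised to it), normalization, variance model, array weights, choice of probe set, and each array left out.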

Additional observations from a re-analysis of the deposited data

Results flagged for a closer look

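Within 62 groups of 4 arrays (31 members in 2 strains), 4 held an array far from the other three by Dixon's 95% criterion on the gap over the group's range; chance gives about 1 in 20. AKR/J array 1 was high for Cspg4 (3.91, others 3.45 to 3.52) and for Sparc (10.37, others 10.19 to 10.21). C57Bl/6J array 8 was low for the laminin gene Lama4 (2.62, others 3.16 to 3.23) and high for Sparcl1 (10.13, others 9.63 to 9.71). By this criterion array 8 was not flagged for the contractile members Acta2 and Tagln.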

How the results depend on the processing

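All 11 called members kept their direction under every alternative run. No paired analysis was possible because the titles give the strains no shared sample numbers. Of 610 member values under alternatives, 543 kept direction and call, 35 lost the call, 4 gained it and 28 changed sign, all 28 in members that were not called.

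Pericyte members: 4 were called higher in AKR/J with each array left out and 1 (Rgs5) within arrays 3, 4, 7 and 8. Their median was 0.98 over the 5 genes detected on all 8 arrays, 0.36 without probe sets suffixed _x_at or _s_at (Notch3 then at 0.38), 0.51 with the mean of all tested probe sets, 0.78 within arrays 3, 4, 7, 8, and 0.58 to 0.76 with an array left out. Fibroblast and matrix members: 1 was called higher in C57Bl/6J with no filter on dim probe sets, 1 to 3 with an array left out (1 without array 2 or 5), 3 to 4 higher in AKR/J. Within arrays 1, 2, 5, 6 these counts were 1 (higher in AKR/J) and 0, and within arrays 3, 4, 7, 8 they were 2 and 0, with 2 arrays per strain. Their median was -0.10 for genes detected on all arrays, -0.03 without the suffixed probe sets, 0.15 within the first array set, -0.11 within the second and -0.05 to 0.01 with an array left out. Over all genes, 239 were called higher in AKR/J and 347 lower in the first set, 93 and 135 in the second, and 572 to 770 and 614 to 895 with an array left out.

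Signs changed for Abcc9 (-0.02 with mean probe sets, -0.08 without suffixed probe sets, -0.08 in the second set, -0.03 to 0.17 with an array left out), Acta2 (-0.18 in the second set, -0.23 to 0.47), Col1a2 (-0.27 to 0.05), Col3a1 (0.14 with MAS5-type signals, 0.11 with mean probe sets, 0.07 in the second set, -0.17 to 0.01), Col5a1 (0.01 with quantile normalization, 0.01 with median centring, 0.09 in the first set, -0.11 to 0.01), Fn1 (-0.08 in the second set), Hspg2 (-0.12 with MAS5-type signals, 0 in the second set, 0 to 0.16), Lamc1 (-0.14 in the second set, -0.09 to 0.10), Lum (0.02 with MAS5-type signals) and Tagln (-0.05 to 0.61). The cause was not tested, apart from fewer arrays or genes. Dim members (Ndufa4l2, Kcnj8, Cspg4, Lama4) lie near background, which limits their differences.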
